A study of Mus musculus with 54 samples.

Results

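Gene expression in the distal SI was compared between ChAT+-activated mice and their controls, and every gene of that comparison is described here, beyond the immediate early genes. The libraries were chosen by the mouse line, the tissue and the virus in their labels, which gave 10 of the 54 libraries of the series, 5 from control and 5 from activated mice. The study activated ChAT+ or TH+ neurons with a designer receptor and sequenced the 3′ ends of transcripts (QuantSeq) of distal SI and proximal colon. The mice of the 10 libraries were ChAT-Cre heterozygotes that received AAV-PHP.S at 6 to 8 weeks of age, and TH mice, compared further below, were TH-Cre heterozygotes. In activated mice the virus carried hSYN1-DIO-hM3Dq-mRuby2, a receptor that excites neurons when bound by C21, and in controls it carried hSYN1-DIO-mRuby2, the fluorescent reporter alone. Both groups were injected i.p. with C21 once a day for 10 days, and 1 cm of the SI next to the cecum was taken 1 h after the last injection, at 10 to 13 weeks of age. Controls were 2 females and 3 males, and activated mice were 3 females and 2 males. Expression of the receptor depended on the hSYN1 promoter and on Cre made in ChAT-expressing cells, and by the limitations stated for the study, a similar strategy labelled ChAT+ neurons of cardiac ganglia elsewhere. Which libraries entered the authors' test is not stated, and the legend of the study's volcano plots states more mice per group than the labels list for the distal SI. The number of mice behind each adjusted p, and so behind each standard error recovered from it, is therefore uncertain.

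ChAT makes acetylcholine, the main excitatory transmitter of the enteric nervous system. Cholinergic motor neurons contract the muscle layers through muscarinic receptors, and cholinergic secretomotor neurons drive ion and water secretion by the epithelium. A rise of calcium or cAMP in a stimulated cell switches on early-response genes through factors such as CREB and SRF, and many of their products are transcription factors or feedback inhibitors with short-lived transcripts. A piece of gut wall holds epithelium, muscle, vessels, immune cells, fat and a small share of neurons, so an early response in it can come from any of these cells.

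The authors' deposited table lists 20445 genes each with an adjusted p and the log2 of its level in activated mice over that in controls (log2 fold change), so a positive value means a higher level in activated mice. It holds no value for any single library, so the spread between mice is not known. The standard error of each log2 fold change was recovered from its adjusted p and is written after ±. DEGs are genes with an adjusted p under 0.05. By this rule 118 genes (0.577%) were higher and 44 (0.215%) were lower in ChAT+-activated mice. The median log2 fold change of all 20445 genes was −0.06, and 42.5% of them lay above 0. Without adjustment, 2122 genes (10.4%) had a p under 0.05, 974 above 0 and 1148 below. The rises were larger than the falls. Higher DEGs had a median of 0.79 and a range of 0.32 to 4.20, and 51 of the 118 exceeded 1, a doubling. Lower DEGs had a median of −0.65 and reached −1.98, and 13 of the 44 fell by more than 1 on the log2 scale. An adjusted p under 0.001 was reached by 28 higher DEGs and by 1 lower DEG, *Tmem140*. At the edge of the threshold, *Plekha7* (adjusted p = 0.0475) and *Cdyl* (adjusted p = 0.0481) lay just inside, while *Acaa1b* and *Zfp948* (both 0.0505) lay just outside. Of the higher DEGs, 54 belonged to at least 1 of 67 lists of genes grouped by function or cell type, and of the lower DEGs 9 did. Each list is described by its number of listed members, of higher and lower DEGs, and its median beside that of all genes, with no test of the list as a whole.

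**Figure D1:**
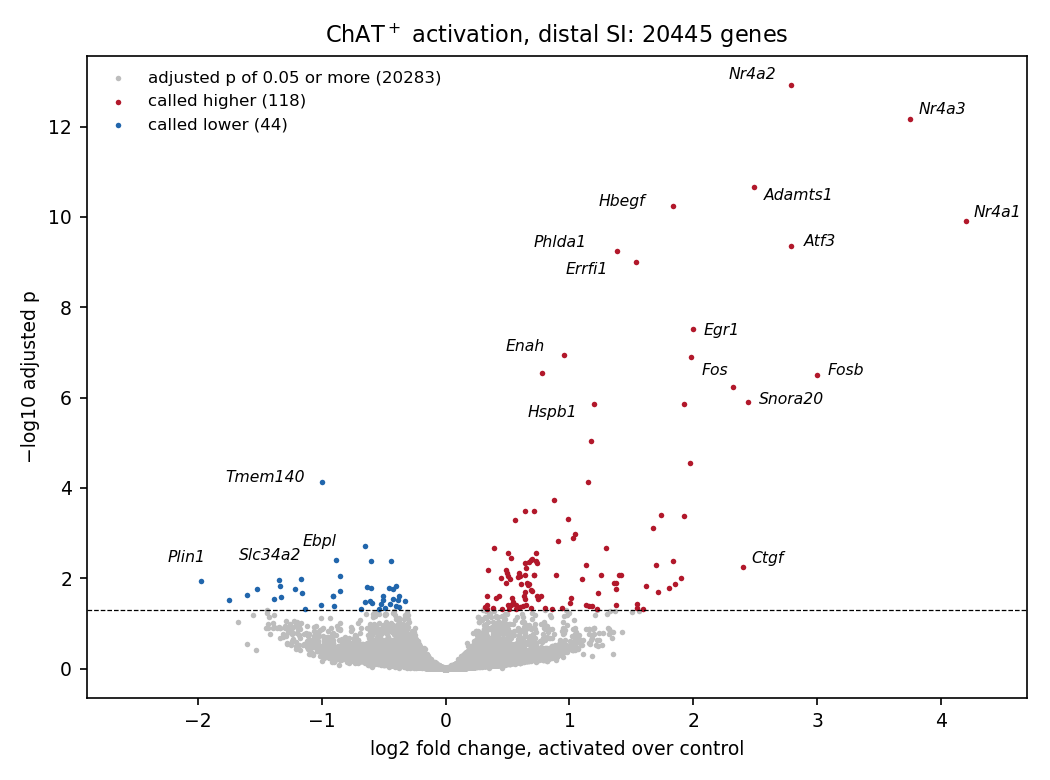
Each point is 1 of 20445 genes, with the log2 fold change (activated over control) on the x axis and −log10 of the adjusted p on the y axis. The 118 higher DEGs (red) reach 4.20 on the x axis and the 44 lower DEGs (blue) reach −1.98, and the dashed line marks an adjusted p of 0.05.

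The largest rises by log2 fold change were those of *Nr4a1* and *Nr4a3*, which encode NR4A nuclear receptors, orphan receptors that act as transcription factors and whose genes respond to cAMP and calcium. All 3 family members were higher DEGs, with a list median of 3.75 against −0.06 for all genes. *Nr4a1* had the largest rise in the whole table, a log2 fold change of 4.20 ± 0.55 (adjusted p = 1.23e-10). *Nr4a3* followed at 3.75 ± 0.45 (adjusted p = 6.67e-13). *Nr4a2* rose by 2.79 ± 0.32 and had the smallest adjusted p of all genes, 1.19e-13. AP-1 factors are dimers of FOS, JUN, ATF and MAF proteins. Of 10 listed AP-1 genes 5 were higher DEGs and none lower, all 10 lay above 0, and their median was 0.80 (0.35 among the 5 with a standard error below the median of all genes). *Fosb* had the largest rise of them, 3.0 ± 0.47 (adjusted p = 3.16e-07). *Atf3*, an AP-1 and stress-response factor, rose by 2.79 ± 0.38 (adjusted p = 4.5e-10). *Fos* rose by 1.98 ± 0.30 (adjusted p = 1.24e-07), *Jun* by 0.50 ± 0.14 (adjusted p = 0.0397) and *Maff*, a small MAF protein without a transactivation domain, by 1.10 ± 0.27 (adjusted p = 0.0104). Another small MAF gene, *Mafk*, which was on no list, rose by 0.63 ± 0.17 (adjusted p = 0.042).

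Other lists of early-response genes held DEGs as well. Of 6 listed EGR, SRF and NAB genes, *Egr1* (2.0 ± 0.29, adjusted p = 2.95e-08) was the only DEG. The list median was 0.38, but −0.04 among the 3 members with a standard error below the median of all genes. Among 11 Krüppel-like factors, which have zinc fingers and often bind GC-rich promoters, 2 were higher DEGs and the median was 0.29. These were *Klf6* at 0.50 ± 0.12 (adjusted p = 0.00756) and *Klf2* at 0.69 ± 0.19 (adjusted p = 0.0455). The list of 22 further early-response genes held 6 higher DEGs and no lower DEG, with a median of 0.36 and 20 members above 0. *Phlda1*, whose product binds membrane phosphoinositides, rose by 1.39 ± 0.19 (adjusted p = 5.8e-10). *Trib1*, a pseudokinase that brings C/EBPα to a ubiquitin ligase, rose by 0.78 ± 0.12 (adjusted p = 2.81e-07). *Csrnp1*, a nuclear protein first found as an AXIN1 target, rose by 1.40 ± 0.33 (adjusted p = 0.00843). *Plk3*, a polo-like kinase of the stress response, rose by 1.36 ± 0.34 (adjusted p = 0.013), and *Ier2* by 0.72 ± 0.17 (adjusted p = 0.00857). The other member was *Maff*, which both lists held.

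Some genes for ligands of the EGF receptor rose, and so did some genes for brakes on the signal that the receptor sends. Of 12 listed EGF receptor ligand and receptor genes 4 were higher DEGs and none lower, with a median of 0.37 against −0.06 for all genes. *Hbegf*, a ligand shed from the membrane, rose by 1.84 ± 0.24 (adjusted p = 5.81e-11). *Areg*, which encodes amphiregulin, rose by 1.80 ± 0.45 (adjusted p = 0.0162), and its neighbour *Ereg*, which encodes epiregulin, by 1.18 ± 0.20 (adjusted p = 9.04e-06). *Errfi1*, an inhibitor that binds the kinase domain of the receptor, rose by 1.54 ± 0.21 (adjusted p = 9.8e-10). The receptor genes were not DEGs, with values of −0.34 for *Egfr* and −0.25 for *Erbb2*. MAPK brakes are mostly phosphatases and Sprouty proteins that switch ERK, JNK or p38 off. Of 16 listed brakes 4 were higher DEGs, none was lower, 13 lay above 0 and the median was 0.48 (0.29 among the 8 with a standard error below the median of all genes). All 4 were dual-specificity phosphatases. *Dusp6*, which acts on ERK in the cytoplasm, rose by 1.03 ± 0.22 (adjusted p = 0.00126), and *Dusp1*, a nuclear enzyme, by 1.13 ± 0.26 (adjusted p = 0.00515). *Dusp8* rose by 1.26 ± 0.30 (adjusted p = 0.0084) and *Dusp5* by 1.23 ± 0.32 (adjusted p = 0.0212).

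Feedback genes of cAMP and GPCR signalling included 3 higher DEGs among 16 listed members, with 13 above 0 and a median of 0.26. *Sik1*, a kinase that restrains the CREB coactivators, rose by 2.32 ± 0.37 (adjusted p = 5.95e-07). *Pde4b*, a phosphodiesterase that breaks down cAMP, rose by 1.15 ± 0.21 (adjusted p = 7.53e-05). *Gem*, a small GTPase that inhibits voltage-gated calcium channels, rose by 1.62 ± 0.40 (adjusted p = 0.0147). Of 12 genes known as effectors of neuronal activity 2 were higher DEGs, and their median was 0.19 (0.45 among those with a standard error below the median of all genes). *Arc*, which acts on the traffic of glutamate receptors, rose by 1.71 ± 0.44 (adjusted p = 0.0198), and *Homer1*, a scaffold of metabotropic receptors, by 0.65 ± 0.15 (adjusted p = 0.00586). *Rims1*, a presynaptic scaffold on no list, rose by 0.73 ± 0.16 (adjusted p = 0.00269).

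Some genes of secreted proteases and of matrix-bound signalling proteins rose as well. ADAMTS enzymes are secreted metalloproteases, several of which cleave proteoglycans such as versican. Of 8 listed members 3 were higher DEGs, and the median was 0.60, but it was 0.04 among the 4 members with a standard error below the median of the table. *Adamts1* rose by 2.49 ± 0.32 and ranked behind only *Nr4a2* and *Nr4a3* by adjusted p (2.18e-11). *Adamts9* rose by 1.92 ± 0.38 (adjusted p = 0.000407) and *Adamts15* by 0.99 ± 0.20 (adjusted p = 0.000497). Of 13 matricellular and plasminogen genes 3 were higher DEGs, with a median of 0.24. *Ctgf*, a matricellular protein whose gene is a common target of YAP, rose by 2.40 ± 0.55 (adjusted p = 0.00561). *Thbs1*, which encodes thrombospondin, rose by 1.3 ± 0.28 (adjusted p = 0.00208). *Plau*, which encodes urokinase, had a value of 1.33 and missed the threshold at an adjusted p of 0.054. *Ptgs2*, the inducible cyclooxygenase, was the only DEG among 17 prostaglandin genes (1.86 ± 0.46, adjusted p = 0.0135), and the median of that list was 0.34.

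Of the vessel lists, that of angiogenic genes held 2 DEGs. Over all genes, 0.577% were higher and 0.215% were lower DEGs. Among 23 angiogenic factors and receptors there was 1 higher and 1 lower DEG, 18 lay above 0, and the median was 0.16. *Apold1*, an early-response gene of endothelial cells, rose by 1.90 ± 0.46 (adjusted p = 0.00961), and *Angptl4*, a secreted inhibitor of lipoprotein lipase, fell by 0.91 ± 0.24 (adjusted p = 0.024). None of 15 endothelial cell markers was a DEG at the same threshold, 1 had an unadjusted p under 0.05, and their median was −0.00. Of 20 TGF-β, BMP and ID genes 2 were higher DEGs, 15 lay above 0 and the median was 0.22. *Id1*, a BMP target that blocks basic helix-loop-helix factors, rose by 0.69 ± 0.15 (adjusted p = 0.004), and *Bmp7*, a BMP ligand, by 0.70 ± 0.18 (adjusted p = 0.0193).

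Chaperone genes formed another group among the strongest DEGs. Of 17 listed heat shock chaperone genes 4 were higher DEGs and none lower, with a median of 0.11 against −0.06 for all genes. *Hspa1b* and *Hspa1a*, which encode inducible HSP70, rose by 1.93 ± 0.32 (adjusted p = 1.41e-06) and 1.97 ± 0.35 (adjusted p = 2.75e-05). These genes are near-identical copies, so reads could be split between them and the share of each is uncertain. *Hspb1*, a small heat shock protein that binds actin filaments, rose by 1.20 ± 0.20 (adjusted p = 1.41e-06). *Dnajb4*, an HSP40 cochaperone, rose by 0.73 ± 0.16 (adjusted p = 0.00403). A pair of cochaperones outside the list were DEGs too, *Dnajc21* at 0.71 ± 0.14 (adjusted p = 0.000329) and *Bag2* at 1.18 ± 0.33 (adjusted p = 0.0403). The lowest value in the list belonged to *Hsph1* (−0.23), an HSP70 exchange factor that was not a DEG. Of 17 genes of the unfolded protein and integrated stress response, *Atf3* was the only DEG, and the median was 0.17. None of 14 oxidative stress and p53 target genes was a DEG, although 5 had an unadjusted p under 0.05. Their median was 0.04, and *Btg2*, an antiproliferative p53 target, came closest (0.46 ± 0.13, adjusted p = 0.0698).

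Genes of the contractile apparatus of smooth muscle lay mostly above 0. Of 20 listed genes 18 had a positive value, 4 were higher DEGs and none was lower, and the median was 0.20. *Des*, the intermediate filament of muscle, rose by 0.67 ± 0.17 (adjusted p = 0.0135). *Cnn1*, which encodes calponin, rose by 0.60 ± 0.14 (adjusted p = 0.00756), *Tagln*, which encodes transgelin, by 0.57 ± 0.15 (adjusted p = 0.0389), and *Flna*, the actin crosslinker filamin A, by 0.34 ± 0.09 (adjusted p = 0.0474). *Myh11*, the smooth muscle myosin heavy chain, had a value of 0.39 at an adjusted p of 0.0542, and *Acta2*, the smooth muscle actin, one of 0.07 ± 0.11 (adjusted p = 0.859). The samples were bulk tissue, so more or fewer cells of a type and more or less RNA per cell cannot be told apart. Higher DEGs outside the lists included further genes of the cytoskeleton and of adhesion, a grouping made after their values were seen. *Enah*, an actin regulator of the Ena/VASP family, rose by 0.95 ± 0.15 (adjusted p = 1.14e-07). *Filip1l*, which resembles a filamin A-interacting protein, rose by 0.64 ± 0.13 (adjusted p = 0.000318). The fibronectin receptor subunit *Itga5* rose by 1.68 ± 0.34 (adjusted p = 0.000762) and its ligand *Fn1* by 0.64 ± 0.15 (adjusted p = 0.00453). The laminin receptor subunit *Itga6* rose by 0.39, the muscle Z-disc genes *Pdlim3* and *Nexn* by 0.53 each, and the microtubule proteins *Clip1* and *Tppp* by 0.51 and 1.04.

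The remaining higher DEGs outside the lists covered several functions, again grouped after their values were seen. Among genes of ribosome assembly and of RNA handling, the RNA helicase *Ddx21* rose by 0.52, the processome component *Mphosph10* by 0.64, the nucleolar GTPase *Gtpbp4* by 0.38, the nucleolar gene *Ccdc86* by 0.74 and the ribosome recycling factor *Abce1* by 0.66. The splicing gene *Srrm1*, the RNA-binding gene *Syncrip* and the stress granule gene *G3bp2* rose by 0.33, 0.33 and 0.32. *Ipo7*, an importin that carries ribosomal proteins into the nucleus, rose by 1.38 ± 0.34 (adjusted p = 0.0128), and *Mrps10*, a mitochondrial ribosomal protein gene, by 1.16 ± 0.32 (adjusted p = 0.0408). Among transporters and channels, the cationic amino acid transporter *Slc7a1* rose by 0.61, the taurine transporter *Slc6a6* by 0.45, the neuronal amino acid transporter *Slc6a17* by 1.37 and the pore subunit of vascular ATP-sensitive potassium channels, *Kcnj8*, by 0.77. D-type cyclins drive entry into the cell cycle, and *Ccnd1* and *Ccnd2* rose by 0.54 and 0.45. The cytokine gene *Tnfsf15* rose by 1.41 ± 0.33 (adjusted p = 0.00832). *Lonrf1*, which encodes a RING finger protein, rose by 0.90 ± 0.19 (adjusted p = 0.00149), the small GTPase *Rap2b* by 0.70 ± 0.16 (adjusted p = 0.00383) and the coenzyme Q-binding protein gene *Coq10b* by 0.89 ± 0.21 (adjusted p = 0.00832). The transcriptional repressor *Bcl6b* rose by 1.60 (adjusted p = 0.0475) and the factor *Rfx2* by 1.23 (adjusted p = 0.0474).

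The lower DEGs were fewer, and 35 of the 44 belonged to none of the lists. *Tmem140*, a transmembrane protein gene, fell by 1.00 ± 0.19 (adjusted p = 7.53e-05) and had the smallest adjusted p among them. *Ebpl*, a relative of a sterol isomerase, followed at −0.65 ± 0.14 (adjusted p = 0.00196). *Slc34a2*, the sodium-phosphate cotransporter of the intestinal brush border, fell by 0.89 ± 0.20 (adjusted p = 0.004). *Grb7*, an adaptor that binds ErbB receptors, fell by 0.60 ± 0.14 (adjusted p = 0.00403), and *Cnppd1*, a gene with a cyclin-like domain, by 0.44 ± 0.10 (adjusted p = 0.00415). *Glyctk*, which encodes glycerate kinase, fell by 1.16 ± 0.28 (adjusted p = 0.0103). Smaller falls were those of the N-glycan branching enzyme *Mgat4b* (−0.40 ± 0.10), the autophagy conjugation gene *Atg12* (−0.46 ± 0.12) and the endolysosomal channel *Tpcn1* (−0.42 ± 0.11), at adjusted p-values of 0.0147, 0.016 and 0.0172. The predicted gene *Gm12258* fell by 1.34 ± 0.33 (adjusted p = 0.0146) and the ubiquitin ligase *Mib2* by 0.85 ± 0.22 (adjusted p = 0.0189). *Slx1b*, a nuclease subunit, fell by 0.61 ± 0.15 (adjusted p = 0.0162), but its locus overlaps *Gm6939* on the same strand in the annotation, so its count is uncertain.

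By size, the largest falls among the DEGs after *Plin1* were those of *Prob1*, *Aldh3b2*, *G6pc* and *Zfp420*. *Prob1*, which encodes a proline-rich basic protein, fell by 1.75 ± 0.47 (adjusted p = 0.0308) and overlaps another gene on its strand. *Aldh3b2*, an aldehyde dehydrogenase, fell by 1.61 ± 0.42 (adjusted p = 0.0232). *G6pc*, the enzyme that releases free glucose in gluconeogenic tissues, fell by 1.53 ± 0.39 (adjusted p = 0.0174). *Zfp420*, a zinc finger gene, fell by 1.38 ± 0.37 (adjusted p = 0.0293), and the zinc finger genes *Zfp369* and *Zfp120* by 0.65 and 0.54. The mitochondrial carbonic anhydrase *Car5b* fell by 1.33 (adjusted p = 0.0253), the actin-bundling gene *Fscn1* by 1.01 (adjusted p = 0.0397) and the tRNA methyltransferase *Trdmt1* by 0.91 (adjusted p = 0.024).

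Adipocyte genes had the lowest median of the 67 lists, −0.64 against −0.06 for all genes. Of 23 listed markers 4 were lower DEGs and 1 was higher, only 3 lay above 0, and 17 had an unadjusted p under 0.05. *Plin1*, the coat protein of lipid droplets in fat cells, had the largest fall in the table, −1.98 ± 0.48 (adjusted p = 0.0115). *Adrb3*, the β-adrenergic receptor of adipocytes, fell by 1.35 ± 0.33 (adjusted p = 0.011). *Cebpa*, a transcription factor of adipocyte differentiation that is also made in other cells, fell by 0.64 ± 0.16 (adjusted p = 0.0155), and *Pnpla2*, which encodes a triglyceride lipase, by 0.51 ± 0.14 (adjusted p = 0.0307). The defining markers *Adipoq* and *Fabp4* did not reach the threshold, with values of −1.40 ± 0.43 (adjusted p = 0.0996) and −0.82 ± 0.33 (adjusted p = 0.305). *Pck1*, an enzyme of gluconeogenesis and of glycerol synthesis in fat, rose by 1.14 ± 0.31 (adjusted p = 0.0397). The list median was 0.07 in the proximal colon of ChAT mice and 0.18 in the distal SI of TH mice. The amount of fat attached to each piece was not recorded in the labels, and its part in these values was not tested.

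Genes of fatty acid oxidation and ketogenesis were also mostly below 0. Of 19 listed genes 3 lay above 0, 1 was a lower DEG, 8 had an unadjusted p under 0.05, and the median was −0.27. *Cpt1a*, which admits long-chain fatty acids to mitochondria, had a value of −0.31 ± 0.09 and an adjusted p of 0.0561. Cholesterol synthesis genes lay on the other side. Of 21 listed genes 18 had positive values, with a median of 0.16, 1 was a higher DEG and none was lower. Of 11 lipid and hypoxia response genes the only DEG was *Hk2*, a hexokinase, which rose by 0.60 ± 0.14 (adjusted p = 0.00895), while the list median was −0.24. A pair of lipid enzymes outside the lists rose, the desaturase *Scd2* by 0.87 ± 0.17 (adjusted p = 0.00018) and the glucosylceramide synthase *Ugcg* by 0.56 ± 0.11 (adjusted p = 0.000517).

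Genes of the circadian clock moved in both directions. Of 19 listed clock genes 2 were higher DEGs and 1 was lower, with a median of 0.17. *Nr1d1*, which encodes the clock repressor REV-ERBα, fell by 1.16 ± 0.30 (adjusted p = 0.0215). *Per2*, a repressor of the core loop, rose by 0.80 ± 0.22 (adjusted p = 0.0466), and *Bhlhe40*, a repressor that binds E-boxes, by 0.75 ± 0.20 (adjusted p = 0.0286). *Cry1*, the partner of PER proteins, had a value of 0.80 ± 0.23 and an adjusted p of 0.051, while the activator gene *Arntl* had one of −0.41 ± 0.27 (adjusted p = 0.652). Of 16 glucocorticoid response and metallothionein genes 2 were higher DEGs, *Errfi1* and *Dusp1*, which other lists also held, and the median was 0.24. *Tsc22d3*, a classic target of the glucocorticoid receptor, had a value of 0.38 ± 0.16 (adjusted p = 0.346). Among 5 C/EBP factors *Cebpb*, a factor of acute responses, rose by 0.60 ± 0.17 (adjusted p = 0.044) and *Cebpa* fell, with a list median of 0.42.

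**Figure D2:**
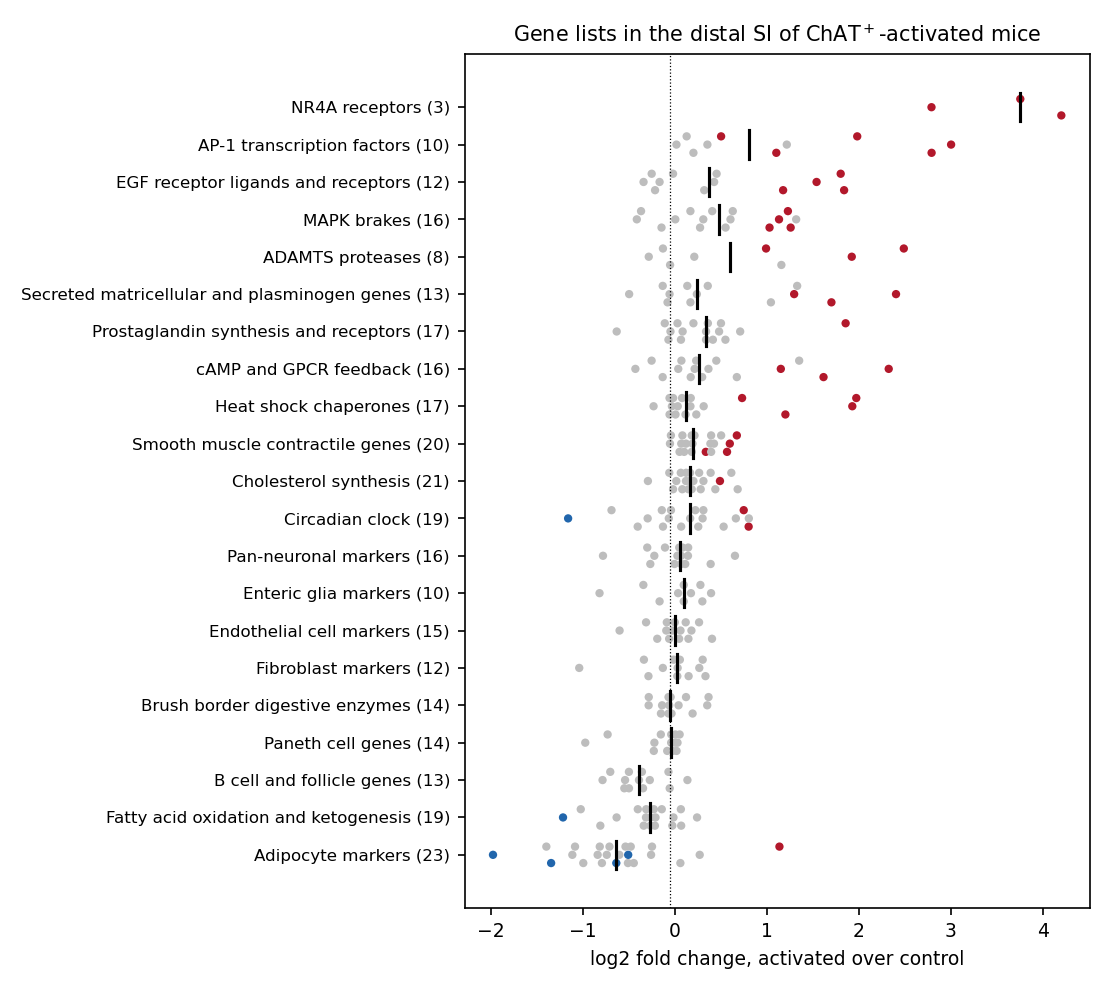
Log2 fold changes of the members of gene lists in the distal SI of ChAT mice, activated over control, with 1 point per listed gene (red for higher DEGs, blue for lower DEGs, grey for the others), a bar at the list median and a dotted line at the median of all genes. The NR4A receptors have the highest median (3.75) and the adipocyte markers the lowest (−0.64), against −0.06 for all genes.

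Among the lists of neuronal and glial genes described next, only that of catecholamine genes held DEGs, 2 of 14. Over all genes, 0.577% were higher and 0.215% were lower DEGs. The table gives differences and no levels, so a marker can only be checked as listed, and markers of enteric neurons, glia, muscle and ileal epithelium were all listed. Among 12 genes of acetylcholine synthesis, release and reception none was a DEG, none had an unadjusted p under 0.05, and the median was −0.03. *Chat* itself had a value of −0.69 ± 0.44 (adjusted p = 0.617), and the muscarinic receptor genes *Chrm2* and *Chrm3* had values of 0.24 ± 0.20 (adjusted p = 0.719) and −0.16 ± 0.20 (adjusted p = 0.836). Of 14 neuropeptide and nitric oxide synthase genes none was a DEG or had an unadjusted p under 0.05, with a median of −0.01. *Vip*, the peptide of inhibitory and secretomotor neurons, stood at 0.02 ± 0.14 (adjusted p = 0.973), and *Nos1* at 0.08 ± 0.27 (adjusted p = 0.949). Of 16 pan-neuronal markers none was a DEG and 1 had an unadjusted p under 0.05, with a median of 0.06, and *Uchl1* stood at 0.14 ± 0.16 (adjusted p = 0.829). Of 10 glial markers none was a DEG and 1 had an unadjusted p under 0.05. Their median was 0.10 (−0.17 among the 3 with a standard error below the median of all genes). Among 14 catecholamine genes 2 were lower DEGs, with a median of −0.10. They were *Adrb3* and *Ddc*, which encodes aromatic amino acid decarboxylase and is also active in enterocytes and serotonin cells (−0.38 ± 0.10, adjusted p = 0.024). *Th* stood at 0.10 ± 0.43 (adjusted p = 0.953). Of 8 genes of pacemaker and PDGFRα+ cells none was a DEG, 1 had an unadjusted p under 0.05 and the median was 0.00.

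Lists of epithelial genes held no DEG, while over all genes 0.577% were higher and 0.215% were lower DEGs. At those shares, lists of this size would hold few DEGs. The lower DEGs *Slc34a2* and *Ddc*, both described as active in the epithelium, were not on these lists. None of 10 ileal bile acid transport genes passed the threshold, 1 had an unadjusted p under 0.05, and the median was −0.07. *Slc10a2*, which takes bile acids up in the ileum, had a value of 0.35 ± 0.20 (adjusted p = 0.567), and *Fgf15*, the hormone that signals bile acid load to the liver, one of −0.71 ± 0.34 (adjusted p = 0.443). Fat absorption (17 genes, median −0.08) and brush border digestion (14 genes, median −0.05) likewise had no DEG, with 2 and 0 genes at an unadjusted p under 0.05. In the fat absorption list *Cd36*, a fatty acid transporter, came closest (−0.76 ± 0.25, adjusted p = 0.133). Ion and water transport is a target of cholinergic secretomotor neurons, and none of its 27 listed genes was a DEG, 3 had an unadjusted p under 0.05 and the median was 0.00. The chloride channel *Cftr* stood at −0.15 ± 0.11 (adjusted p = 0.682). None of 15 tight junction genes was a DEG, while 6 had an unadjusted p under 0.05, with a median of −0.14. The secretory cells gave medians of −0.11 for 12 goblet cell genes, −0.04 for 14 Paneth cell genes, −0.12 for 14 enteroendocrine genes and −0.11 for 10 tuft cell genes, with no DEG and 1, 1, 0 and 1 genes at an unadjusted p under 0.05. *Muc2*, the main goblet cell mucin, stood at −0.26 ± 0.16 (adjusted p = 0.611) and *Lyz1*, the Paneth cell lysozyme, at −0.15 ± 0.14 (adjusted p = 0.747). The 17 genes of antimicrobial defence had a median of −0.06, no DEG and 1 gene at an unadjusted p under 0.05. The 13 stem cell and Wnt target genes had a median of 0.11, no DEG and 2 genes at an unadjusted p under 0.05, and the stem cell marker *Lgr5* stood at 0.09 ± 0.14 (adjusted p = 0.868). Of 18 cell division genes 15 lay above 0, with a median of 0.13, no DEG and 4 genes at an unadjusted p under 0.05. *Kif4*, a mitotic kinesin on no list, was a higher DEG (0.94 ± 0.26, adjusted p = 0.0455). The 21 xenobiotic metabolism enzymes had a median of 0.03, with no DEG and 0 genes at an unadjusted p under 0.05.

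Immune and stromal lists held 1 DEG between them. This is a low count, but the shares over all genes were also low, 0.577% higher and 0.215% lower DEGs. *Lyz2*, the lysozyme of myeloid cells, fell by 0.49 ± 0.14 (adjusted p = 0.0456) and was the only DEG among 12 macrophage genes, which had a median of −0.08. None of 23 cytokine and NF-κB feedback genes was a DEG and 0 had an unadjusted p under 0.05, with a median of 0.06, and *Il6* stood at −0.04 ± 0.28 (adjusted p = 0.961). Of 14 STAT3 and SOCS genes none was a DEG and 3 had an unadjusted p under 0.05. Their median was 0.20 (0.08 among the 7 with a standard error below the median of all genes). Of 13 B cell and follicle genes 1 lay above 0, and the median was −0.39, with no DEG and 2 genes at an unadjusted p under 0.05. The B cell receptor component *Cd79a* stood at −0.27 ± 0.44 (adjusted p = 0.866), and the 34 immunoglobulin genes had a median of −0.11 with no DEG and 0 genes at an unadjusted p under 0.05. The 13 T cell genes (median 0.03), 10 MHC class II genes (median −0.09) and 12 mast cell and granulocyte genes (median 0.09) each had no DEG and 0 genes at an unadjusted p under 0.05. The 18 interferon-stimulated genes had a median of 0.05, no DEG and 2 genes at an unadjusted p under 0.05. Of the stroma, 12 fibroblast markers (median 0.03) and 14 collagen genes (median 0.05) had no DEG, with 4 and 3 genes at an unadjusted p under 0.05. The 6 mesothelial markers had a median of −0.42 (0.02 among the 2 with a standard error below that of the median gene), no DEG and 0 genes at an unadjusted p under 0.05. Genes of tissues that a gut piece can carry along were listed in part. Of 13 pancreatic acinar genes 4 were listed (median −0.26), of 8 erythroid genes 6 (median −0.30) and of 10 skeletal muscle genes 7 (median −0.40), with no DEG and 0, 0 and 1 genes at an unadjusted p under 0.05.

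Gene classes that often follow RNA quality or library make-up held 1 DEG. With only 0.577% higher and 0.215% lower DEGs over all genes, this count does not show whether RNA quality was alike in both groups. None of 85 cytosolic ribosomal protein genes (median −0.06), 78 oxidative phosphorylation genes (median −0.04), 36 mitochondrially encoded genes (median −0.08) or 62 histone genes (median −0.17) was a DEG, with 5, 4, 4 and 3 genes at an unadjusted p under 0.05. Of 81 small nuclear and nucleolar RNA genes 1 was a DEG, with a list median of −0.08. This was *Snora20*, an H/ACA snoRNA, at 2.44 ± 0.40 (adjusted p = 1.23e-06). *Snora20* lies inside *Tcp1* on the same strand, and *Tcp1* had a value of 0.02 (adjusted p = 0.957), so the assignment of reads between them is uncertain. Of 13 snoRNA host and long noncoding RNA genes 12 lay above 0, with a median of 0.21 and no DEG, and 4 had an unadjusted p under 0.05. *Malat1*, a nuclear long noncoding RNA, came closest (0.32 ± 0.09, adjusted p = 0.0704). The sexes were not balanced between the groups. Of 10 sex-linked genes none was a DEG and 1 had an unadjusted p under 0.05. *Xist*, expressed in females, had a value of 0.46 ± 2.38 (adjusted p = 0.955), and the Y-linked genes *Ddx3y* and *Uty* had values of −0.17 ± 1.70 (adjusted p = 0.977) and −0.59 ± 1.45 (adjusted p = 0.928). Both sexes were present in each group, and the standard error of *Xist* was the widest of all 20445 genes.

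Positions and gene types were taken from GENCODE M21 on GRCm38, in which 157 of the 162 DEGs were found by symbol. Protein-coding genes made up 112 of the higher and 42 of the lower DEGs. The lincRNA gene *Gm16046* rose by 1.55 (adjusted p = 0.0455), and *Rab10os*, antisense to *Rab10*, fell by 0.59 (adjusted p = 0.0343). Whether the counting used the strand is not stated, so reads of *Rab10os* and of *Rab10*, which had a value of 0.11, cannot be told apart. Among 5 DEGs not found in the annotation, the clone-named gene RP23-288J11.3 rose by 1.74 ± 0.35 (adjusted p = 0.000399). DEGs within 100 kb of each other formed 4 pairs, and the members of each pair moved in the same direction. *Ereg* and *Areg* lie on the plus strand of chromosome 5 with 45953 bases between them, and *Hspa1b* and *Hspa1a* on the minus strand of chromosome 17 with 9952 bases between them. *Dnajb4* and *Nexn* lie on the minus strand of chromosome 3, 26680 bases apart. *Thra*, a thyroid hormone receptor gene, fell by 0.38 (adjusted p = 0.0425) and overlaps *Nr1d1* on the opposite strand of chromosome 11 (chr11:98740638-98769006 and chr11:98767932-98775333). Reads in their shared stretch cannot be assigned without the strand, so the values of both genes are uncertain in that respect.

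Promoters of the DEGs were read for known motifs, since CREB, AP-1 and heat shock factors are the textbook regulators of many genes that rose. Windows of 300 bases, from 250 before to 50 after each gene start, came from RefSeq on GRCm38.p6 and were found for 82 of 118 higher DEGs, 28 of 44 lower DEGs and 13597 of all 20445 genes. Motifs were searched on both strands, and a gene counted where any of its windows held the motif. The cAMP response element TGACGTCA was present in 13.4% of higher DEGs, 3.57% of lower DEGs and 3.17% of all genes. Its core TGACG, which every full element contains, was present in 62.2%, 17.9% and 31.5%. The heat shock motif GAANNTTC was present in 13.4% of higher DEGs, none of the 28 lower DEGs and 7.08% of all genes. The AP-1 motif TGANTCA was in 4.88% of higher DEGs and 6.99% of all genes, and the EGR motif GCGGGGGCG in 7.32% and 5.77%. The TEAD motif GGAATG was in 13.4% and 14.9%, the E-box CACGTG in 14.6% and 10.6%, and the CArG box in 2.44% and 1.60%. Over all 32851 windows of the table, whether or not their gene was listed, the full cAMP response element was in 1.79%, its core in 20.8% and the heat shock motif in 7.86%. These shares are descriptions, and no match says only that these letters are not in this window. The full cAMP response element was found in 11 higher DEGs, among them *Errfi1*, *Areg*, *Dusp1*, *Dusp8*, *Maff*, *Arl5b* and *Pdlim3*. The heat shock motif was found in 11 higher DEGs, among them *Hspb1*, *Hspa1a*, *Hspa1b*, *Homer1*, *Kcnj8* and *Jun*.

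The windows of 5 higher DEGs are shown for the core TGACG or its reverse complement CGTCA, because they carry several copies and represent the receptors, AP-1, the MAPK brakes and the EGF receptor ligands. Capitals mark each core match, or the full element where it is present, and every sequence reads 5′ to 3′ on the strand of the gene. The window of *Nr4a1* lies at chr15:101266596-101266895, plus strand. The window of *Nr4a2* lies at chr2:57123954-57124253, minus strand. The window of *Fos* lies at chr12:85473640-85473939, plus strand. The window of *Dusp1* lies at chr17:26508423-26508722, minus strand. The window of *Areg* lies at chr5:91139349-91139648, plus strand. Those of *Nr4a1* and *Nr4a2* hold 4 cores each and that of *Fos* holds 2, while *Dusp1* and *Areg* each have a full element and a further core.
*Nr4a1*: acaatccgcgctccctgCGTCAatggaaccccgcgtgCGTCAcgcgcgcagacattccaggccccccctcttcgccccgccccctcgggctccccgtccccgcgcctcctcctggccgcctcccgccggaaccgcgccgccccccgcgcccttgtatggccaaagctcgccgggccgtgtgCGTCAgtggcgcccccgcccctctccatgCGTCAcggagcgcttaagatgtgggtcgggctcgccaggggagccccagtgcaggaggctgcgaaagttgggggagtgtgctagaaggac
*Nr4a2*: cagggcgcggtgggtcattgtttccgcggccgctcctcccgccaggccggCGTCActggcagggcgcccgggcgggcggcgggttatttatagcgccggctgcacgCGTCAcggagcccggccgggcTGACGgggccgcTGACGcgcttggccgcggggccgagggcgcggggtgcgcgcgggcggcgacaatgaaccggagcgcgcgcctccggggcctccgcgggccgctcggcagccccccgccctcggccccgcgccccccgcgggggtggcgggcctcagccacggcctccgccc
*Fos*: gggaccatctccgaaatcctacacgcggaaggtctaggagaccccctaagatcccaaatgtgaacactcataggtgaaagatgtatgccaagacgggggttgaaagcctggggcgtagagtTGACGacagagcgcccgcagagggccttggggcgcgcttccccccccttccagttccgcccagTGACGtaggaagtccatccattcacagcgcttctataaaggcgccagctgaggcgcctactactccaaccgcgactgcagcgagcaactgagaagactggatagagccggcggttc
*Dusp1*: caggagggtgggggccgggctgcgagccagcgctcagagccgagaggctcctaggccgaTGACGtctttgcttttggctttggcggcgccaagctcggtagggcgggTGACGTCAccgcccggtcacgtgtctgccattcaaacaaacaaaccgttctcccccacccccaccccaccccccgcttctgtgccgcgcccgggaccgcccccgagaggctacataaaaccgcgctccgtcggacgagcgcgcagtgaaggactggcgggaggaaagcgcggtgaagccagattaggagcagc
*Areg*: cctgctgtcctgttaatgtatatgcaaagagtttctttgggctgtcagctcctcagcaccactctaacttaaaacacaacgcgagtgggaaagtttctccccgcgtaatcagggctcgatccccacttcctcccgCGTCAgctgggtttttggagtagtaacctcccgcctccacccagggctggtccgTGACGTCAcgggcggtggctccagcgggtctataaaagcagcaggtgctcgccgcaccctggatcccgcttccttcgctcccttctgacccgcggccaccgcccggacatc

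The windows of 3 chaperone genes are shown for the heat shock motif GAANNTTC, marked in capitals. That of *Hspb1* lies at chr5:135887669-135887968, plus strand. That of *Hspa1a* lies at chr17:34972107-34972406, minus strand. That of *Hspa1b* lies at chr17:34959189-34959488, minus strand. *Hspb1* has 2 matches and the *Hspa1a* and *Hspa1b* windows 1 each. The windows of *Hspa1a* and *Hspa1b* are identical at 296 of 300 positions, which shows how alike these copies are.
*Hspb1*: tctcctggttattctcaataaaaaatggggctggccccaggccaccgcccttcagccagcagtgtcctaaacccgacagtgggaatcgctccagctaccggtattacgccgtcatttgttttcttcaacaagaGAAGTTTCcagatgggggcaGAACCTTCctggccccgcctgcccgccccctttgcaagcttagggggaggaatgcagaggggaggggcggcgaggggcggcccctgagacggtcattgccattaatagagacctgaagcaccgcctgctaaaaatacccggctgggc
*Hspa1a*: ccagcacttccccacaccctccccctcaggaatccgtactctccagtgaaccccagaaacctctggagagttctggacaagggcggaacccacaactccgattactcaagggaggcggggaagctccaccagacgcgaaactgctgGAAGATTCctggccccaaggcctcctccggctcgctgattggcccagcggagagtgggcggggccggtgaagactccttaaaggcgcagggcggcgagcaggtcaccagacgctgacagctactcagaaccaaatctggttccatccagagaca
*Hspa1b*: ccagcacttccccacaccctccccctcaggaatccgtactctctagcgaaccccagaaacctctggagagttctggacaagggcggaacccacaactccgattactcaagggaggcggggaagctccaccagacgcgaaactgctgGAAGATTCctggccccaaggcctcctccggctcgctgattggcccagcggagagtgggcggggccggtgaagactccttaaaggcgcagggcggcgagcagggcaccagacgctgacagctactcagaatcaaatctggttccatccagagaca

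These changes were set beside those in the distal SI of TH mice, where 69 of 18960 genes (0.364%) were higher and 96 (0.506%) lower in activated mice. Those mice were labelled as 2 females and 4 males, against 0 females and 5 males in controls. The 2 comparisons differ in mouse line and sex make-up as well as in neuron type, and these cannot be told apart. A total of 6 higher DEGs were shared, 5.08% of the ChAT+ and 8.70% of the TH+ list, and they were *Adamts1*, *Adamts9*, *Apold1*, *Cebpb*, *Errfi1* and *Klf2*. Lower DEGs shared were 7, 15.9% of the ChAT+ and 7.29% of the TH+ list, among them *Atg12*, *Ddc*, *Grb7*, *Nr1d1*, *Slc34a2* and *Trdmt1*. The difference between the log2 fold changes of both lines was tested for each gene against the recovered standard errors, with adjustment over all 18960 genes. It was above 0 for 24 genes (0.127%) and below 0 for 7 (0.0369%). With t quantiles in place of normal quantiles these counts were 46 and 22. Of these 31 genes, 19 were DEGs of the ChAT+ distal SI, all of them higher. None of the lower DEGs differed between the lines by this test, and 20 of them had an unadjusted p of the difference under 0.05. So did 80 of the higher DEGs and 1868 of all 18960 genes. DEGs were chosen by the same ChAT+ value that enters the difference. Their counts are therefore raised by that choice and are no fair match for the count over all genes. The NR4A genes differed by 3.08 for *Nr4a1* (adjusted p = 0.0107), 3.02 for *Nr4a3* (adjusted p = 0.00715) and 2.71 for *Nr4a2* (adjusted p = 0.000162). *Atf3* differed by 3.21 (adjusted p = 6.98e-07), with a value of −0.42 in TH mice.

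Of the 4 chaperone DEGs in the list, 3 differed between the lines. *Hspa1b* stood at −0.58 in TH mice (difference 2.51, adjusted p = 0.000333), *Hspa1a* at −0.27 (difference 2.24, adjusted p = 0.0144) and *Dnajb4* at −0.24 (difference 0.97, adjusted p = 0.0188). *Hspb1* stood at 0.14 and did not pass (difference 1.06, adjusted p = 0.0671). *Id1* stood at −0.48 in TH mice and differed by 1.17 (adjusted p = 0.000205). The pseudokinase gene *Trib1* differed by 0.93 (adjusted p = 0.000157), and *Phlda1* by 1.09 (adjusted p = 0.0107). Differences were also found for *Lonrf1* (1.34, adjusted p = 0.000333), *Rap2b* (1.09, adjusted p = 0.000418), *Tppp* (1.47, adjusted p = 0.00121), *Ugcg* (0.70, adjusted p = 0.00715), *Fam76a* (0.88, adjusted p = 0.0161) and *Coq10b* (1.16, adjusted p = 0.0243), which are less often counted as early-response genes. The others were *Hbegf*, *Fos* and *Egr1*. *Hbegf* had the smallest adjusted p of the difference (3.87e-17), and it was the only higher DEG of the ChAT+ distal SI that was a lower DEG in TH mice (−1.09, adjusted p = 5.33e-05). The tables differ in the upper range of their standard errors, since the 99th percentile of the standard error was 0.51 in the ChAT+ distal SI, 2.65 in the TH+ distal SI and 3.0 in the ChAT+ proximal colon, while the medians were 0.28, 0.31 and 0.32. The reason was not tested, and it limits a comparison of fold changes between tables. In TH mice, histone genes and small nuclear and nucleolar RNA genes had medians of 0.73 each, with 4 and 8 higher DEGs. In ChAT mice these medians were −0.17 and −0.08. Ribosomal protein, oxidative phosphorylation and mitochondrially encoded genes had medians of 0.07, 0.04 and 0.10 in TH mice. The part of RNA quality or library make-up in the differences between lines was not tested.

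The proximal colon of ChAT mice was labelled with 6 control libraries (3 females, 3 males) and 9 activated ones (5 females, 4 males). The distal SI had 5 of each, so the DEG counts of both tissues rest on unlike group sizes. The colon had 169 of 17512 genes higher (0.965%) and 84 lower (0.480%). It shared 41 higher DEGs with the distal SI, 34.7% of the distal SI list and 24.3% of the colon list, among them all 3 NR4A genes, *Atf3*, *Sik1*, *Pde4b*, *Ptgs2*, *Areg*, *Ereg*, *Dusp1*, *Dusp6* and *Hspa1a*. Of the 6 lower DEGs in common, 2 were also lower DEGs in TH mice, *Nr1d1* among them, and the 6 higher DEGs shared with TH mice were also higher DEGs in the colon. Replicate numbers recur in both tissues, with the same sex and number for 4 of 5 control and 4 of 5 activated mice of the distal SI, so both tissues may come from the same mice. The test of the difference treated their errors as independent, which is an assumption. Under it, the difference between the tissues passed for 1 of 17511 genes (0.00571%), *Hspb1*. The count depended on the setting, with 35 genes when t quantiles were used and 534 with a correlation of 0.5 between the errors of both tissues. *Hspb1* stood at −0.14 ± 0.17 in the colon, a difference of 1.34 (adjusted p = 0.0056). The next smallest adjusted p of the difference was 0.0566 for *Des*, which stood at −0.34 in the colon. Several strong DEGs of the distal SI had colon values near 0, among them *Enah* (0.10, adjusted p = 0.779) and *Adamts15* (0.15, adjusted p = 0.854), chosen after their values were seen, but their difference between tissues did not pass with independent errors (adjusted p = 0.0614 and 0.565). With the correlation of 0.5, *Des* and *Enah* were among the genes that passed. The smooth muscle list had a median of −0.15 in the colon, against 0.20 in the distal SI of ChAT mice and 0.18 in that of TH mice, and the difference between the lists was not tested.

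**Figure D3:**
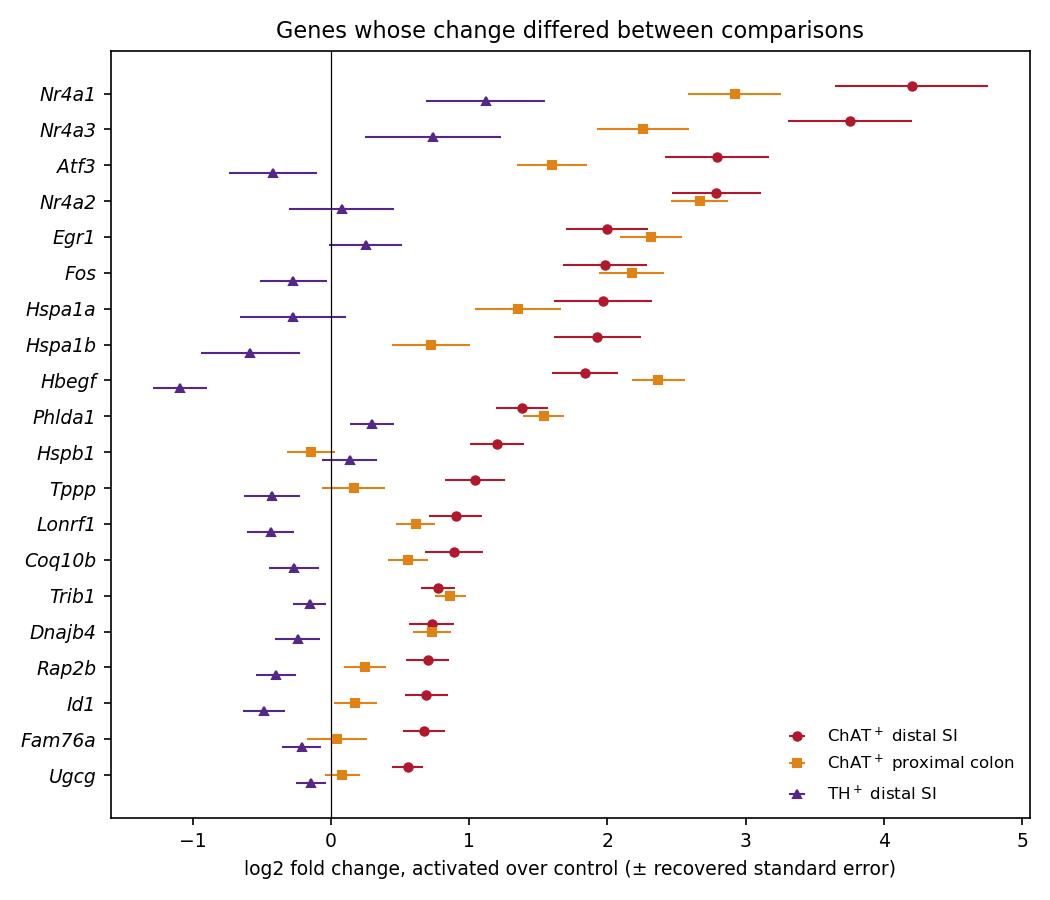
Log2 fold changes (activated over control), with recovered standard errors as bars, for the DEGs of the ChAT+ distal SI whose change differed from that of TH mice (19 genes) or of the colon (*Hspb1*). For *Hspa1b* the ChAT+ distal SI value is 1.93 and the TH+ value −0.58, and for *Hspb1* the colon value is −0.14 against 1.20.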

How the data were processed

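RNA from 1 cm of distal SI was sequenced by QuantSeq. The authors moved UMIs to read names (umi2index), trimmed reads (BBDuk), aligned them to GRCm38 (HISAT2 2.1.0), collapsed duplicates, counted reads per gene (HTSeq) and compared groups in ShinySeq. Filters, shrinkage and covariates are not given in the sources used here. The deposited tables hold, per gene, a log2 fold change (activated over control) and a −log10 adjusted p-value, as the authors computed them. Rows after the blank row repeat earlier genes and were left out, and 22 symbols turned into dates were not named. There are no values per library, so depth is unknown and no model was refitted. Unadjusted p-values were recovered by undoing the Benjamini-Hochberg step (at the middle of the range that a shared value allows), and standard errors as the absolute log2 fold change over the normal quantile. Differences between comparisons were tested two-sided on these errors, with Benjamini-Hochberg adjustment over all genes in both tables. The steps were run on simulated data made with the same normal quantile and with independent tables. That run checks the arithmetic only and does not cover the authors' own test, any shrinkage or shared mice. Values were given in full for the 20 smallest adjusted p and the 5 largest changes in each direction, and for DEGs in lists, apart from a few genes left out of the text. Of lists without DEGs, defining genes or the smallest adjusted p were named. Other genes near the threshold were named after their values were seen. The members and lists were chosen with earlier results of these data known. Alternatives changed thresholds, a minimum fold change, the recovered errors and the repeated rows. Python 3.11.15, numpy 2.4.6, pandas 2.3.3, scipy 1.17.1 and matplotlib 3.10.9 were used.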

Additional observations from a re-analysis of the deposited data

Results flagged for a closer look

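These results were flagged because the change in the ChAT+ distal SI differed from that in another comparison by a test of the difference itself, in log2 units. Against the TH+ distal SI, the difference was 3.21 for *Atf3*, 3.08 for *Nr4a1*, 3.02 for *Nr4a3*, 2.93 for *Hbegf* and 2.71 for *Nr4a2*. It was 2.51 for *Hspa1b*, 2.24 for *Hspa1a* and 0.97 for *Dnajb4* among the chaperone genes. For *Fos* and *Egr1* it was 2.25 and 1.75. The difference was 1.47 for *Tppp*, 1.34 for *Lonrf1*, 1.17 for *Id1*, 1.16 for *Coq10b*, and 1.09 for both *Rap2b* and *Phlda1*. The smallest flagged differences were 0.93 for *Trib1*, 0.88 for *Fam76a* and 0.70 for *Ugcg*. Against the ChAT+ proximal colon, the difference was 1.34 for *Hspb1*. By the labels, the TH+ controls included no female, and the part of sex in the differences between lines was not tested.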

How the results depend on the processing

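No paired analysis was possible because the tables carry no value per library, and leaving out each replicate in turn could not be run for the same reason. With an adjusted p under 0.01, 63 higher and 6 lower DEGs remained, 69 in all. Lower DEGs numbered 86 at an adjusted p under 0.1 and 28 when a fold change of at least 1.5 was also required. With t quantiles in place of normal quantiles, 68 genes differed between the lines and 35 between the tissues. A correlation of 0.5 between the errors of both tissues gave 534 genes that differed, so the count of 1 gene with independent errors rests on that assumption. *Hspb1* itself passed in every setting tried for the tissues. The cause was not tested beyond what each setting itself changes. The other 14 values stayed within 1.5 times the main ones, with 91 to 174 higher DEGs and 31 or 32 genes that differed between the lines. When lists and the reference were both limited to genes of lower standard error, 38 in place of 43 lists had a median above the reference and 13 changed side, while the reference itself moved from −0.06 to −0.00. The NR4A, T cell and skeletal muscle lists had no such member and so no median. Of the larger medians, those that shrank by over 1.5 times and kept their sign were those of the AP-1 (0.35), MAPK brake (0.29), STAT3 and SOCS (0.08) and ADAMTS (0.04) lists, while those of the neuronal activity effectors (0.45) and the histone genes (−0.27) grew by over 1.5 times. The sign turned for the EGR, endothelial, catecholamine, neuropeptide, pan-neuronal, glial, mesothelial, macrophage, p53, sex-linked and mitochondrially encoded lists. The study states only a maximum number of reads, and the depth of each library is unknown, so what depth limits cannot be given.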
